A study of Homo sapiens with 12 samples.

Results

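HMGCS1, STARD4 and VLDLR are 3 sterol-regulated genes of cholesterol supply, chosen as a set out of the 14884 genes named on the array. Each was read from the row that carries its symbol in the platform annotation, and each has 1 such row, a transcript cluster that gathers the probes of a gene. They were chosen by their log2 differences between the groups on these same arrays, where all 3 means were higher after the mimic, so the difference between the groups is described for them and not tested. The data are 12 Human Gene 2.0 ST arrays of HEK293 cells, a line of human embryonic kidney cells transformed with adenovirus DNA. In one group of 6 arrays the cells had received Syn-hsa-miR-1825, a synthetic copy of the microRNA miR-1825, and in the other group of 6 the AllStars Negative Control siRNA. Both RNAs were given at 5 nM with HiPerfect, a lipid-based reagent, and RNA was isolated 24 h later, so all arrays share the transfection and no untransfected cells are compared. The series title links miR-1825 to amyotrophic lateral sclerosis and names the search for its target mRNAs as the purpose. HEK293 is a single line kept in serum, whose lipoproteins supply cholesterol, and no label says whether the 6 replicates came from separate cultures, and each p-value therefore reflects the scatter of these arrays alone, part or all of which may be technical.

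Animal cells keep membrane cholesterol in balance through SREBP-2, a transcription factor that is held in the endoplasmic reticulum by INSIG proteins and its escort SCAP while sterols are plentiful. When sterols fall, SREBP-2 is cut free and raises the enzymes of the mevalonate pathway together with genes for uptake and transport. HMGCS1 encodes the cytosolic synthase that makes HMG-CoA, an early step of the mevalonate pathway. STARD4 encodes a small START domain protein that carries cholesterol between membranes. VLDLR encodes the very low density lipoprotein receptor, which binds apolipoprotein E particles and the signalling protein reelin, and which is also known as a gene induced by hypoxia and by the ATF4 branch of the stress response.

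The transfected agent and the start regions of the genes are shown to identify what was given to the cells and what lies before each gene. Target sites in the transcripts were not examined here, and no link between the start regions and the differences was tested. The mature microRNA has 18 bases and lies at chr20:32237830-32237847 on the plus strand of GRCh38.p14, within the span of POFUT1. The seed, bases 2 to 8, which directs a microRNA to its targets, is in capitals. No other of the human microRNAs in the RefSeq table has this seed, among 2545 mature entries.
hsa-miR-1825: uCCAGUGCccuccucucc

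The 250 bases before the first listed transcription start of each gene were taken from RefSeq (GRCh38.p14), and all 3 genes matched. HMGCS1 lies on the minus strand of chromosome 5, with this window at chr5:43313413-43313662. STARD4 is also on the minus strand of chromosome 5, with its window at chr5:111512536-111512785. VLDLR is on the plus strand of chromosome 9, with its window at chr9:2621537-2621786. Capitals mark every match, on either strand, to 6 motifs: TCACNCCAC (a form of the sterol regulatory element), CCAAT (bound by NF-Y, a known partner of SREBP), GGGCGG (the GC box), TATAAA (the TATA box), ACGTG (the core of the hypoxia response element) and TGATGNAA (the ATF4 composite site).
HMGCS1: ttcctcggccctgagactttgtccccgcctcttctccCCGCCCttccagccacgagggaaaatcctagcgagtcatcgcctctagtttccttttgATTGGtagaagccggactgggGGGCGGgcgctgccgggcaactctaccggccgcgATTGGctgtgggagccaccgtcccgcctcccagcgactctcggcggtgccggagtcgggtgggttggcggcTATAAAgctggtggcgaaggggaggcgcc
STARD4: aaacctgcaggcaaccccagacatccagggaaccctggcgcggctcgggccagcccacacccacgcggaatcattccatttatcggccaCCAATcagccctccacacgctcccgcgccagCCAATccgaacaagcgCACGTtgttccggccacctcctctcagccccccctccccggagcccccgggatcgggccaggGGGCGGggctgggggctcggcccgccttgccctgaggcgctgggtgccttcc
VLDLR: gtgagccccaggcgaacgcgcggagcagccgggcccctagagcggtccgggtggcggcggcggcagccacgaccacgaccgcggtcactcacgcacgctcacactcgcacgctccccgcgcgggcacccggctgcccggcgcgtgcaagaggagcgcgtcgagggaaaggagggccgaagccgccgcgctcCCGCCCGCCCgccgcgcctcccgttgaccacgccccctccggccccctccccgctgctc

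HMGCS1 and STARD4 each hold 2 CCAAT boxes in this window, and the VLDLR window holds 0. The windows are printed along the strand of each gene. In HMGCS1 the CCAAT boxes read on the strand opposite to the gene, at -155 to -151 and -100 to -96, counted from the start site. In STARD4 they read on the strand of the gene itself, at -161 to -157 and -130 to -126. Of 35116 windows of the same length, 32.0% hold at least 1 CCAAT and 9.53% at least 2. The GC box matched 2 times in HMGCS1, 1 time in STARD4 and 2 times in VLDLR, where both matches overlap, and 42.6% of all windows hold it. HMGCS1 alone of the 3 has a TATA box, at -29 to -24 (10.7% of all windows). STARD4 alone has the hypoxia core, on the strand opposite to the gene at -114 to -110 (18.5% of all windows). The sterol element as spelled here (0.883% of all windows) and the ATF4 site (3.14%) matched in none of the 3. A second HMGCS1 start has a window with 2 GC boxes and no other match. The VLDLR window is the richest in G and C, at 78.8% against 66.0% in HMGCS1, 70.4% in STARD4 and a median of 58.0% over all windows. Among the other cholesterol synthesis enzymes, 15 have a listed window, of which 11 (73.3%) hold a CCAAT, 7 (46.7%) hold at least 2 and 0 hold the sterol element as spelled.

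The arrays were alike, with pairs of one group correlating at 0.992 and pairs across groups at 0.991 on average (53617 clusters). Array medians ran from 4.44 to 4.51 on the log2 scale. The upper quartile was 6.28 to 6.31 in controls and 6.31 to 6.32 after the mimic, and the median log2 difference in the brightest 25% of clusters was 0.02 as deposited and -0.004 after quantile normalization. With limma over all clusters, 6 of 53617 (0.0112%) passed an adjusted p of 0.05. None of these was the cluster read for any of the 14884 named genes. At an unadjusted p under 0.05 there were 1618 of the 14884 named genes. Markers were read to check the cell label. Of 6 measured markers chosen for HEK293, 6 reached the median cluster mean (4.48) and 4 were in the brightest 25%, with means from 5.60 (PAX2) to 9.68 (KRT18). Of the measured markers of fibroblasts, leukocytes, hepatocytes and epithelial cancer lines, 1 of 2, 1 of 3, 3 of 4 and 3 of 4 reached that median, and 0, 0, 0 and 1 in the brightest 25%. Their means ran from 2.66 (DCN) to 5.71 (LUM), from 3.02 (LYZ) to 6.27 (CD68), from 3.71 (ALB) to 5.52 (TTR) and from 3.33 (ESRP1) to 7.95 (EPCAM), so the lists overlap with the HEK293 markers on this scale. The mean over each list overlapped between the groups, for instance 4.73 to 4.90 in controls and 4.65 to 4.94 after the mimic for the hepatocyte genes.

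**Figure D1:**
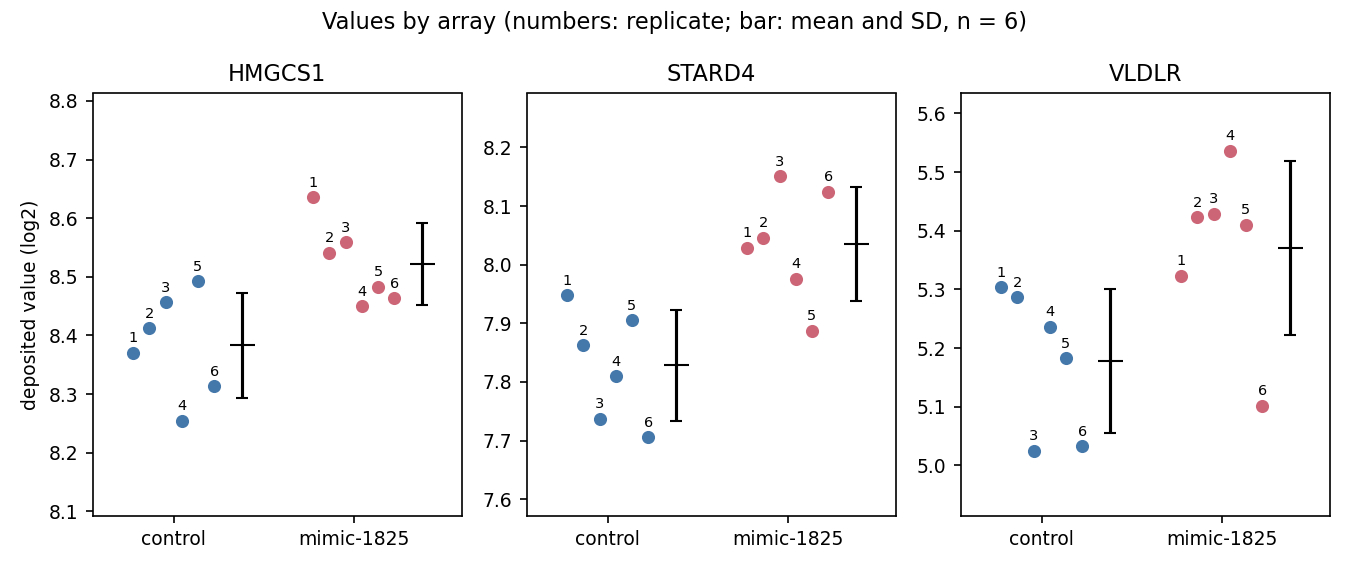
Deposited log2 values of HMGCS1, STARD4 and VLDLR on each array, with the replicate number above each point and a bar for the mean and SD of 6 arrays. All panels span the same height on the log2 scale; the groups overlap for each gene, and mimic replicate 6 is the lowest mimic array for VLDLR.

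HMGCS1, the enzyme gene, had the smallest difference of the 3 and the tightest values. Control arrays ran from 8.25 in replicate 4 through a median of 8.39 to 8.49 in replicate 5. Mimic arrays ran from 8.45 in replicate 4 through a median of 8.51 to 8.64 in replicate 1. All 6 mimic arrays lay above the control mean. Mimic replicates 1, 2 and 3 were above every control, while mimic replicates 4, 5 and 6 lay at 8.45 to 8.48, within the range of the controls. The means were 8.38 ± 0.09 in controls and 8.52 ± 0.07 after the mimic (SD, n = 6 each), a log2 difference of 0.14 with a standard error of 0.05 in the limma fit, or 1.10-fold.

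STARD4, the carrier gene, had the largest difference. Control arrays ran from 7.71 in replicate 6 through a median of 7.84 to 7.95 in replicate 1. Mimic arrays ran from 7.89 in replicate 5 through a median of 8.04 to 8.15 in replicate 3. In this gene 5 of 6 mimic arrays lay above every control, and mimic replicate 5 lay below control replicates 1 and 5. The means were 7.83 ± 0.09 and 8.04 ± 0.10 (SD, n = 6 each), a log2 difference of 0.21 with a standard error of 0.06, or 1.15-fold.

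VLDLR, the receptor gene, was the most variable. Control arrays ran from 5.02 in replicate 3 through a median of 5.21 to 5.30 in replicate 1. Mimic arrays ran from 5.10 in replicate 6 through a median of 5.42 to 5.54 in replicate 4. Again 5 of 6 mimic arrays lay above every control, but mimic replicate 6 was below the control mean and below 4 of the controls. The means were 5.18 ± 0.12 and 5.37 ± 0.15 (SD, n = 6 each), a log2 difference of 0.19 with a standard error of 0.08, or 1.14-fold. Without mimic replicate 6 the log2 difference was 0.25, and without mimic replicate 4 it was 0.16. The mean of this cluster over all arrays was 5.27, above 63.0% of all clusters, against 87.3% for STARD4 and 90.3% for HMGCS1, and background on the array is not known, so a fold of a dim cluster may be understated.

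In all 3 genes the ranges of the groups overlapped. Over the named genes, all 6 mimic arrays lay above all 6 controls in 200 (1.34%) and below them in 60 (0.403%), and none of the 3 genes is among these. An unadjusted p under 0.05 with a higher mean was reached by 995 named genes (6.69%), and with a lower mean by 623 (4.19%). Ordered by size over the named genes, the log2 difference of HMGCS1 was above 92.7%, that of VLDLR above 97.0% and that of STARD4 above 97.7% of them. These ranks restate the choice of the genes and support nothing.

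**Figure D2:**
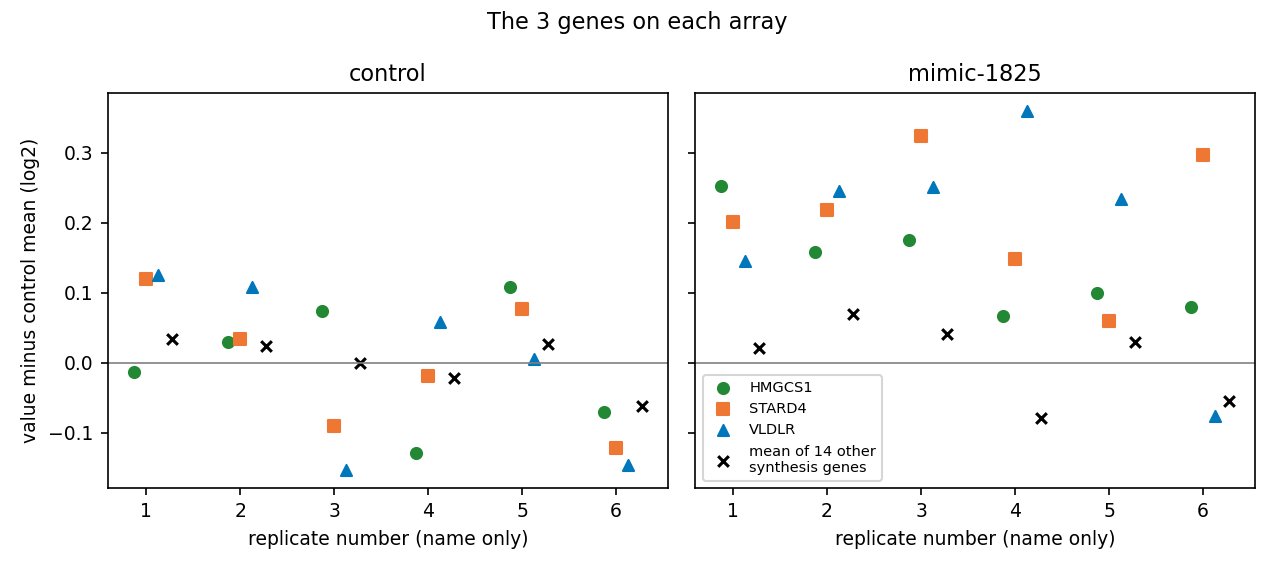
Value of each gene minus its control mean (log2) on every array, by group, beside the mean of the 14 other cholesterol synthesis genes. Mimic replicates 1, 2 and 3 stand above the control range for all 3 genes, while the mean of the synthesis genes stays within 0.1 of 0 in both groups.

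The 3 genes were not high on the same mimic arrays throughout. On mimic replicates 1, 2 and 3 all 3 lay above every control. On mimic replicate 4 this held for STARD4 and VLDLR, on mimic replicate 5 for VLDLR and on mimic replicate 6 for STARD4. Among the controls, replicate 6 was below the control mean for all 3 genes, and replicates 2 and 5 were above it for all 3. Without control replicate 6 the log2 differences were 0.12 for HMGCS1, 0.18 for STARD4 and 0.16 for VLDLR.

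Whether the genes vary together was asked of the deviations from the group means, which the choice of the genes did not use. Over 12 arrays, HMGCS1 and STARD4 had a Pearson r of 0.27 and a Spearman rho of 0.29 (permutation p = 0.415 and 0.375, each over 100000 draws within groups). For STARD4 and VLDLR, r was 0.13 and rho 0.22 (permutation p = 0.693 and 0.506). For HMGCS1 and VLDLR, r was -0.06 and rho -0.29 (permutation p = 0.855 and 0.388). None of the 3 pairs passed after Benjamini-Hochberg adjustment over the 6 relations computed, with permutation adjusted p values of 0.622, 0.831 and 0.855 for r and 0.551 for each rho. Leaving out the 2 arrays farthest from the median of the first gene gave r of 0.36, 0.04 and 0.13. The r of HMGCS1 and STARD4 was 0.45 with arrays centred on their medians and 0.053 after quantile normalization. Within the controls STARD4 and VLDLR had an r of 0.85 (n = 6, exact p = 0.05), and within the mimic arrays -0.45 (n = 6, exact p = 0.350). Adjusted over the 12 relations within groups these were 0.300 and 0.700 (exact tests), and the difference between the groups was not tested.

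Each gene was also set against the rest of the cholesterol synthesis enzymes, and differences between the 3 genes in this relation were not tested. The r of HMGCS1 with the mean of the 14 other measured cholesterol synthesis genes was 0.60 and the rho 0.54 (permutation p = 0.0413 and 0.0838, adjusted 0.248 and 0.340, 12 arrays). It was 0.63 within controls and 0.64 within mimic arrays (n = 6 each, exact p = 0.206 and 0.156), and 0.68 without the 2 farthest arrays. With arrays centred on their medians r was 0.74 (permutation adjusted p = 0.0472), and after quantile normalization it was 0.38 (permutation adjusted p = 0.649), so this relation moves with the scaling. For STARD4 the r was 0.34 (permutation adjusted p = 0.622) and rho 0.50 (adjusted 0.340), with 0.86 within controls (n = 6, exact p = 0.0278, adjusted 0.300) and 0.03 within mimic arrays (n = 6, exact p = 0.931). It was 0.54 with arrays centred on their medians and 0.070 after quantile normalization. For VLDLR r was 0.34 (permutation adjusted p = 0.622) and rho 0.20 (adjusted 0.551), with 0.66 within controls and 0.19 within mimic arrays (n = 6 each, exact p = 0.186 and 0.639). It was 0.44 after quantile normalization, and 0.090 without the 2 farthest arrays, control replicate 3 and mimic replicate 6. The mean of the 14 genes itself was 8.15 ± 0.04 in controls and 8.16 ± 0.06 after the mimic (SD, n = 6 each), and the groups overlapped.

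**Figure D3:**
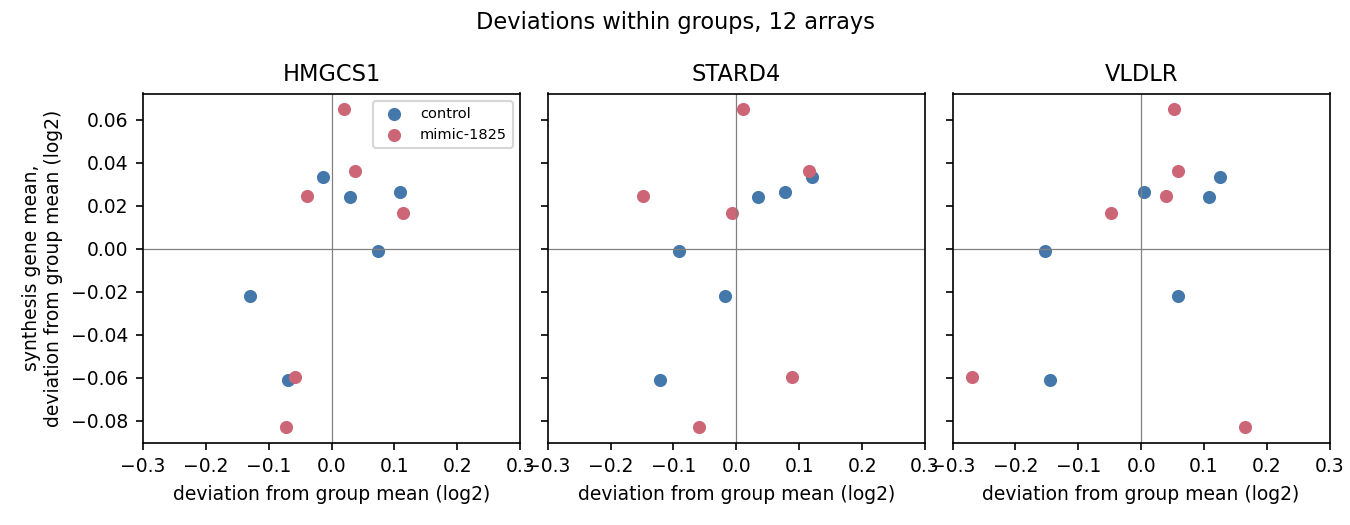
Deviation of each gene from its group mean (log2, horizontal) against the deviation of the mean of 14 other cholesterol synthesis genes (log2, vertical) on 12 arrays. HMGCS1 has an r of 0.60, STARD4 of 0.34 and VLDLR of 0.34, none past the permutation test after adjustment.

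Single genes were ranked by the same measure, among 10131 named genes at or above the median. The arrays share their normalization, 12 points leave room for high values by selection, and no p is given. HMGCS1 was most like LRRC49 (r = 0.94, rho 0.97), LPCAT2 (0.92), a lysophosphatidylcholine acyltransferase gene, ZNF385A (0.91), RP9P (0.91), a pseudogene, and GET4 (0.89), a factor in the insertion of tail-anchored proteins. STARD4 was most like SMYD3 (0.86), DTNBP1 (0.86), BNIP1 (0.85), SFPQ (0.85), a splicing factor gene, and SOX8 (0.85). VLDLR was most like SETD3 (0.90), METTL2A (0.89), HEXA (0.88), a lysosomal hexosaminidase gene, PODXL (0.88) and TXNDC11 (0.86). No gene of the sterol lists was among these 15. The r of HMGCS1 with 13 other synthesis genes in this ranking had a median of 0.52, beside 0.14 over all genes ranked, and was above 0 for 11 of them, highest for SQLE at 0.63. Over all genes ranked, r with HMGCS1 ran from -0.51 at the 5th percentile to 0.67 at the 95th, so SQLE lies within that range. The medians for STARD4 were 0.12 and 0.08, and those for VLDLR 0.25 and 0.05.

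**Figure D4:**
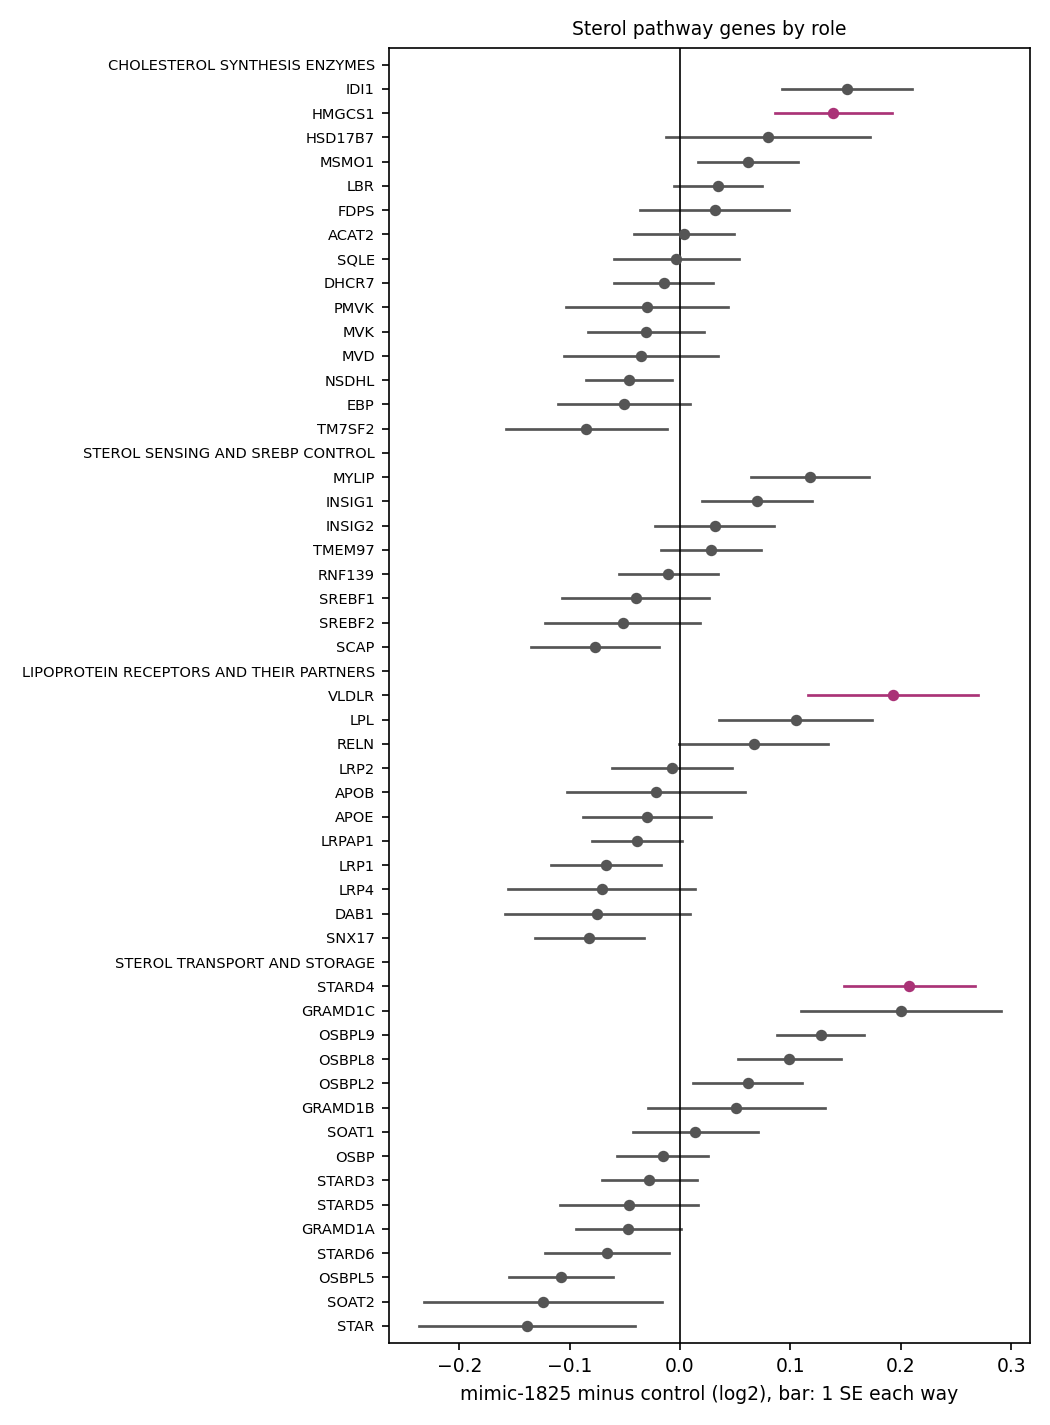
Log2 difference (mimic-1825 minus control) of the measured sterol pathway genes in 4 lists by role, with bars of 1 standard error of the limma fit each way. Purple marks HMGCS1, STARD4 and VLDLR, which were chosen for their height; the 46 other genes lie on both sides of 0, with a median of -0.02.

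The rest of the sterol pathway lay on both sides of 0. Of 46 other measured genes in the 4 lists by role, 18 had higher and 28 lower means after the mimic. Over all named genes, 7457 of 14884 (50.1%) had a higher mean. Of the 46, 40 reached the median cluster mean, and STAR, the lowest at -0.14, did not. The median was a log2 difference of -0.02 beside 0.0002 over all named genes and 0.02 over the named genes in the brightest 25% of clusters. With limma 0 passed over all clusters, and 5 (10.9%) had an unadjusted p under 0.05, beside 10.9% of all named genes, with 4 higher and 1 lower. The groups did not overlap for 1 of the 46, beside 260 (1.75%) of all named genes.

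Cholesterol synthesis enzymes, the partners of HMGCS1, had 6 higher and 8 lower means among 14 measured, with a median of -0.01. IDI1, the isomerase of isopentenyl diphosphate, had 6.97 ± 0.11 in controls and 7.12 ± 0.08 after the mimic (SD, n = 6 each), a log2 difference of 0.15 (limma adjusted p = 0.392). All 6 mimic arrays lay above its control mean and 4 above every control. MSMO1, a sterol demethylation enzyme gene, had a log2 difference of 0.06, NSDHL, which acts beside it, of -0.05 and SQLE, the squalene epoxidase gene, of -0.003.

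Genes that sense sterols or control SREBP had 4 higher and 4 lower means among 8 measured. SREBF2, which encodes SREBP-2, had a log2 difference of -0.05, SREBF1 of -0.04 and SCAP of -0.08. INSIG1, both a brake on and a target of SREBP-2, had 10.11 ± 0.10 in controls and 10.18 ± 0.03 after the mimic (SD, n = 6 each), with 6 of 6 mimic arrays above the control mean and 0 above every control (limma adjusted p = 0.655). MYLIP encodes the ubiquitin ligase IDOL, which sends lipoprotein receptors, VLDLR among them, for degradation. It had 7.12 ± 0.08 and 7.24 ± 0.08 (SD, n = 6 each), a log2 difference of 0.12 (limma adjusted p = 0.457), with 6 of 6 mimic arrays above the control mean.

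Lipoprotein receptors and their partners, the setting of VLDLR, had 2 higher and 8 lower means among 10 measured, with a median of -0.03. Of the 10, 7 reached the median cluster mean, and 50.1% of all named genes had a higher mean. SNX17, a sorting nexin that recycles receptors of this family, had a log2 difference of -0.08 and LRP1, a large endocytic receptor gene, of -0.07. For both, each of the 6 mimic arrays was under the control mean, but neither passed (limma adjusted p = 0.585 and 0.665). LPL, the lipoprotein lipase gene, had 0.10 at a mean below the array median, where no fold is given.

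Sterol transport and storage genes, the setting of STARD4, had 6 higher and 8 lower means among 14 measured, and 3 of the 5 genes with an unadjusted p under 0.05. OSBPL9, an oxysterol-binding protein relative, had 6.60 ± 0.03 in controls and 6.73 ± 0.04 after the mimic (SD, n = 6 each), a log2 difference of 0.13 with no overlap of the groups (limma adjusted p = 0.292 over all clusters). Among the brightest 25% of clusters alone, where 242 of 13405 (1.81%) were called, it passed. GRAMD1C, a gene of the GRAMD1 cholesterol carriers, had a log2 difference of 0.20 and OSBPL5 of -0.11 (limma adjusted p = 0.457 and 0.445). Of 6 START domain genes measured outside the transport and storage list, the mean was higher in 4 and lower in 2. Of these, 0 had an unadjusted p under 0.05. STARD3, STARD5, STARD6 and STAR, counted in the transport and storage list, also have a START domain. Their log2 differences were -0.03, -0.05, -0.07 and -0.14, with STARD6 and STAR at means below the array median. STARD9, a kinesin with a START domain, had a log2 difference of 0.18, STARD8 of 0.14 and STARD3NL, a STARD3 relative without a START domain, of 0.08.

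Both STARD4 and VLDLR have antisense genes that start beside them, and their annotated spans share 310 and 587 bases. STARD4-AS1 had 5.49 ± 0.09 in controls and 5.46 ± 0.10 after the mimic, and VLDLR-AS1 3.66 ± 0.22 and 3.64 ± 0.19 (SD, n = 6 each). The log2 differences were -0.02 in both, while those of STARD4 and VLDLR were 0.21 and 0.19. VLDLR-AS1 has a mean below the array median, and the 95% interval of its difference, -0.25 to 0.22, includes the 0.19 of VLDLR.

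**Figure D5:**
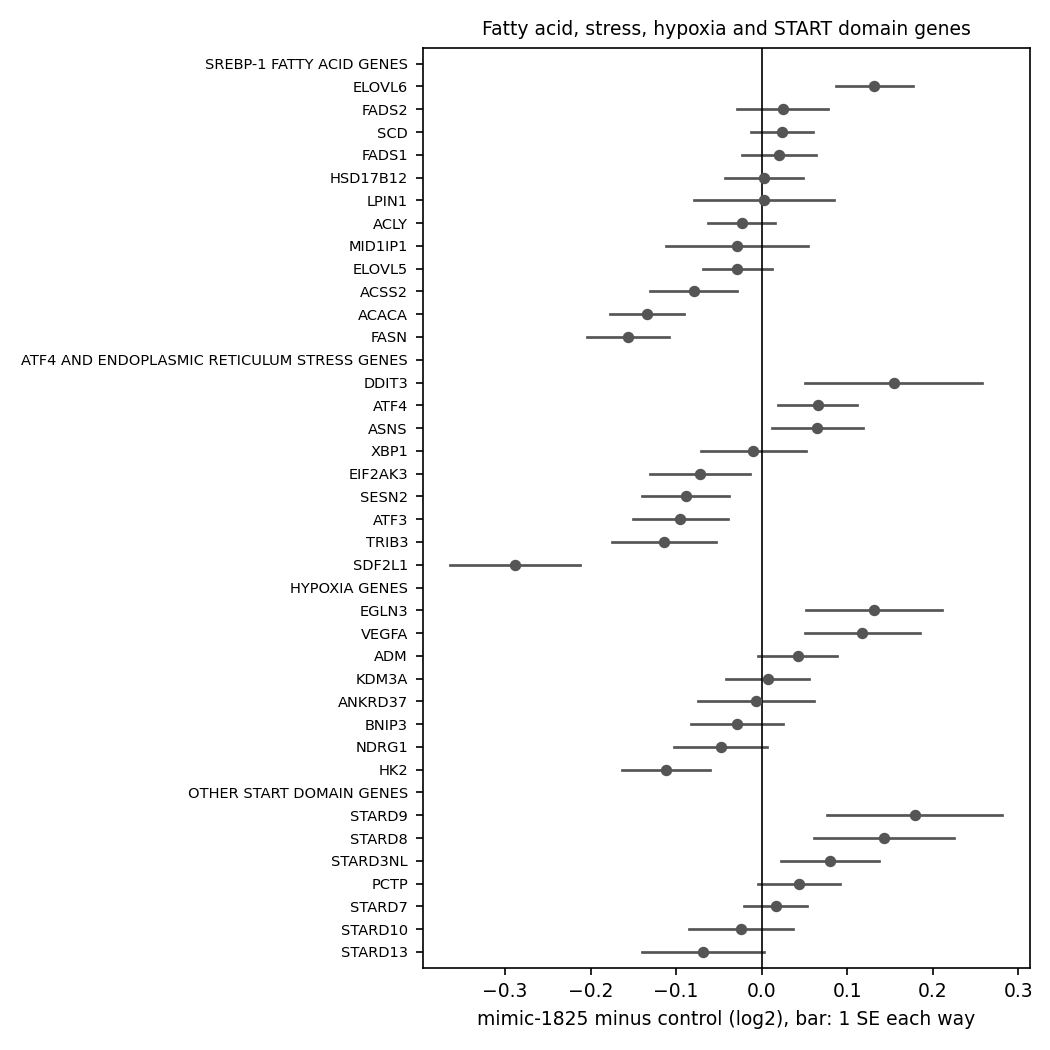
Log2 difference (mimic-1825 minus control) of fatty acid, stress, hypoxia and START domain genes, with bars of 1 standard error of the limma fit each way. FASN and ACACA lie below 0 and ELOVL6 above, and SDF2L1 is the lowest of the stress genes at -0.29.

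Fatty acid genes, which SREBP-1 controls in parallel, had differences on both sides of 0. Of 12 measured, 6 had higher and 6 lower means. With limma 0 passed over all clusters, and 3 had an unadjusted p under 0.05, beside 10.9% of all named genes. FASN, the fatty acid synthase gene, had 10.08 ± 0.08 in controls and 9.93 ± 0.05 after the mimic, a log2 difference of -0.16 (SD, n = 6 each; limma adjusted p = 0.289). ACACA, which encodes the acetyl-CoA carboxylase that supplies it, had 8.80 ± 0.07 and 8.66 ± 0.02, a log2 difference of -0.13 (SD, n = 6 each; limma adjusted p = 0.309). For both, all 6 mimic arrays lay below all 6 controls. ELOVL6, a fatty acid elongase gene, had 8.02 ± 0.05 and 8.15 ± 0.07, a log2 difference of 0.13, with all 6 mimic arrays above all 6 controls (SD, n = 6 each; limma adjusted p = 0.331). Non-overlap occurred thus in 3 of 12 fatty acid genes, beside 1.75% of all named genes, and whether the list stands apart was not tested. In the isoprenoid branch, 3 genes were measured: DOLPP1 had -0.07, DHDDS 0.03 and NUS1 0.02.

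VLDLR is also known to respond to stress and to hypoxia, and both lists had differences on either side of 0. Of 9 measured ATF4 and endoplasmic reticulum stress genes, the mean was higher in 3 and lower in 6 after the mimic, and the median difference was -0.07. SDF2L1, an endoplasmic reticulum chaperone gene, had 7.52 ± 0.08 in controls and 7.24 ± 0.17 after the mimic, a log2 difference of -0.29 (SD, n = 6 each; limma adjusted p = 0.241). TRIB3 and SESN2, both induced by ATF4, had -0.11 and -0.09 (limma adjusted p = 0.531 and 0.566). The genes with higher means were ATF4 at 0.07, ASNS at 0.06 and DDIT3 at 0.15, the last with a mean below the array median. Of 8 measured hypoxia genes, the mean was higher in 4 and lower in 4, and the median difference was 0.0002. HK2, a hexokinase gene, had -0.11 (limma adjusted p = 0.463), VEGFA, the vascular growth factor gene, 0.12 and EGLN3, an oxygen-sensing hydroxylase gene, 0.13. With limma 0 genes of these lists passed over all clusters, and 2 of 17 (11.8%) had an unadjusted p under 0.05, close to the 10.9% of all named genes.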

How the data were processed

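RNA from HEK293 cells was hybridised to 12 Human Gene 2.0 ST arrays, 6 per group. The deposited table holds log2 values for 53617 transcript clusters, which the authors made in Expression Console from Affymetrix, according to the labels and per the submitters' processing notes. The version, background correction and normalization were not given in the sources used here, and the log2 scale was read from the values (1.62 to 14.4). Without probe intensities, background levels are unknown, and the number of arrays limits the precision.

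Clusters were named through the platform annotation (16098 had 1 symbol, 0 several, 37519 none), with symbols checked against RefSeq (GRCh38.p14; 16098 matched, 0 changed). A gene with more than 1 cluster was read from its brightest one. Values were fitted as deposited with limma 3.58.1 under R 4.3.3 (lmFit, eBayes, all clusters, no block, two-sided, Benjamini-Hochberg adjusted p threshold 0.05). Correlations used Python 3.11.15 and scipy 1.17.1, with group means removed; within groups, exact pairings tests were used. Both scripts were tested on simulated data. The 3 genes, the lists and the rules were chosen with earlier results of these data known. Named were INSIG1, SREBF2, SREBF1, SCAP and SQLE, the up to 3 genes per list with the smallest p, and the 5 genes most like each of the 3. Further START domain and stress genes were named where their differences went the other way. Alternatives were scalings, filters, priors, a replicate block and leaving out single arrays. Some listed genes are not reported here. Same-numbered arrays did not deviate together (correlations -0.113 to 0.0841 at or above the median).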

Additional observations from a re-analysis of the deposited data

Results flagged for a closer look

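Single arrays far from the other 5 of their group were sought with Dixon's criterion for 51 genes or means in both groups. Of these 102 sets of 6 arrays 6 had one, and chance alone marks about 1 in 20. None of the 6 was HMGCS1, STARD4 or VLDLR. Mimic replicate 6 was the lowest mimic array for 3 of the genes most like VLDLR, which were ranked by these same arrays: SETD3 at 9.19 (others 9.30 to 9.34), METTL2A at 9.45 (others 9.54 to 9.60) and PODXL at 6.51 (others 6.67 to 6.75). It was also the lowest for DOLPP1, at 8.71 against 8.80 to 8.85. The MSMO1 value of control replicate 4 was 9.71, below the 9.84 to 9.87 of the others. For OSBPL9 mimic replicate 2 was the highest at 6.81, against 6.69 to 6.73.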

How the results depend on the processing

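The log2 differences of HMGCS1, STARD4 and VLDLR stayed above 0 and moved by less than 1 SD under every alternative run. They were 0.15, 0.22 and 0.21 with arrays centred on their medians, 0.11, 0.18 and 0.20 after quantile normalization, and 0.12, 0.20 and 0.21 as differences of medians. Without single arrays they ranged from 0.11 to 0.16, from 0.18 to 0.24 and from 0.16 to 0.25. This says little about stability, since the genes were chosen on these arrays. Each gene has 1 row, so other rows could not be tried. The count of 6 called clusters was 39 with a trend and robust prior, 13 at or above the median, 242 in the brightest 25% and 0 to 6 without single arrays. The count of 5 sterol pathway genes at an unadjusted p under 0.05 ranged from 2 to 6 without single arrays. With the replicate number as a block, which nothing in the labels or the arrays supports as a pairing, the counts were 0 clusters and 2 sterol genes, and the standard errors of the 3 genes were 0.05, 0.07 and 0.06. The r of HMGCS1 and VLDLR, -0.06, was 0.13 with arrays centred on their medians and also 0.13 without the 2 farthest arrays. Without single arrays it ranged from -0.33 to 0.082, that of STARD4 and VLDLR from -0.035 to 0.51, that of HMGCS1 and STARD4 from 0.16 to 0.41, that of STARD4 and the synthesis genes from 0.18 to 0.55, and that of VLDLR and the synthesis genes from 0.080 to 0.81 (highest without mimic replicate 4). The r of HMGCS1 and the synthesis genes passed with arrays centred on their medians (0.74) and ranged from 0.54 to 0.64 without single arrays. With this centring each of the 6 relations had a higher r than as deposited, and the others did not pass. Why these values move was not tested. The log2 differences of the 47 other genes named by rule (those from the lists and the 15 most like the 3 genes) each moved by less than 1 SD under the scalings, the block and leaving out single arrays. Several changed sign without single arrays. SREBF1 ranged from -0.071 to 0.0077, SQLE from -0.034 to 0.024 and DHDDS from -0.0027 to 0.056. The range was -0.046 to 0.0084 for STARD4-AS1 and -0.079 to 0.064 for VLDLR-AS1.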
